A study of Mus musculus with 30 samples.

Results

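Decr1, Ech1, Eci1 and Eci2 encode the auxiliary enzymes of unsaturated fatty acid oxidation, and they were chosen by name, each gene being 1 entry of the deposited table. The choice was made with earlier results of these data known. All 4 were measured, out of 16475 entries tested, and each lay above an intensity of 20, taken here as background, on every one of the 30 arrays. RNA of the quadriceps, the large thigh muscle, was taken from male mice of the strain that the labels spell C56BL/6J and the series' design text C57BL/6J, with 1 mouse on each Affymetrix array. Mice went onto a low fat run-in diet for 3 weeks at an age of 9 weeks. Of these, 10 were sampled at its end at 12 weeks of age (LF day 0). After a further 56 days, at 20 weeks of age, 10 mice kept on low fat food (LF day 56) and 10 switched at random to high fat food (HF day 56) were sampled. All 3 groups therefore share the run-in on low fat food, and the makeup of the diets is not given in the sources used here. The question of the series is what high fat feeding, at the stage of obesity and insulin resistance, does to transcripts in muscle.

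The beta-oxidation spiral of mitochondria shortens saturated acyl-CoA directly, but its enzymes stop where an unsaturated fatty acid carries a double bond in the wrong position or geometry. Auxiliary enzymes remove these obstacles. Enoyl-CoA delta isomerases move the bond to the place where enoyl-CoA hydratase can act; Eci1 is the mitochondrial form, and Eci2 is found in peroxisomes as well as mitochondria. Ech1 is a dienoyl-CoA isomerase that shifts a conjugated pair of bonds along the chain, and Decr1 is the mitochondrial dienoyl-CoA reductase, which uses NADPH to reduce such a pair. Genes of this kind are known targets of the fatty acid sensing PPAR receptors. Muscle is a main site of fatty acid oxidation, and dietary fats contain unsaturated acids.

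Upstream sequence is shown for the genes that had an entry in the RefSeq promoter table (build GRCm38.p6), because the genes varied together across mice. These were Ech1, Eci1 and Eci2; Decr1 was not listed. Each run is the 250 bases before 1 annotated start, 5′ to 3′ on the gene's own strand, with every match to GGGCGG or its reverse complement CCGCCC, the GC box recognised by Sp1-type factors, in capitals. The Ech1 window is chr7:28825088-28825337 on the plus strand, the Eci1 window is chr17:24426433-24426682 on the plus strand, and the Eci2 window is chr13:34994145-34994394 on the minus strand. The Ech1 and Eci1 windows adjoin the annotated gene, whereas the Eci2 window lies inside its span of chr13:34977748-35027115. Sequence before the outer end of that span was not searched.
Ech1: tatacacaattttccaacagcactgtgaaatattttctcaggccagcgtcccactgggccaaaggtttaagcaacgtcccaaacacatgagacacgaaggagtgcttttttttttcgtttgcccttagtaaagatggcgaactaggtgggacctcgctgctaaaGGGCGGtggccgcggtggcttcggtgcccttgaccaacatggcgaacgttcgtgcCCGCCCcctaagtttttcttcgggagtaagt
Eci1: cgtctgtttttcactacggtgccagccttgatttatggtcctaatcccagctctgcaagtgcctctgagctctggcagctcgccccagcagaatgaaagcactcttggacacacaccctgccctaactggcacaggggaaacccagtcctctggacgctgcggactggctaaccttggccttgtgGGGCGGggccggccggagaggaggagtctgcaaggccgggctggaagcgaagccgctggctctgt
Eci2: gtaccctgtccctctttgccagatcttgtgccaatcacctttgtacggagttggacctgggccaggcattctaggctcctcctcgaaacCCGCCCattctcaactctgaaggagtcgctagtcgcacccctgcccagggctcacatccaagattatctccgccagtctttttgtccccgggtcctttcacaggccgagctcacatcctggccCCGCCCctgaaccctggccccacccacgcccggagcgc

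GGGCGG was chosen after the sequences were seen. It occurred at 2 places in the Ech1 window, 1 in the Eci1 window and 2 in the Eci2 window, and 32.7% of all 32851 windows of this length held it on either strand. The PPAR half-site AGGTCA had 0 matches in the 3 windows (14.0% of all windows hold it). The DR1 element, 2 copies of that half-site in the same direction with 1 base between, had 0 matches as well (0.0335% of all windows), and so did a looser DR1 with any base in place of the T of each copy (0.338%). All were searched on both strands, and the looser form includes every match of the strict one. These letters are not in these windows, and other parts of the genes were not searched. CpG dinucleotides numbered 15, 11 and 12 in the Ech1, Eci1 and Eci2 windows, against a median of 6.0 over all windows.

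All 9 muscle fibre markers, among them Acta1, Ckm and Myh4, lay above 20 on all 30 arrays. Slow fibre, adipocyte and neutrophil markers varied between mice within every group. The summed intensity of 7 slow fibre markers ran from 383.4 to 5860.7 in LF day 0, 362.6 to 7977.1 in LF day 56 and 268.1 to 5632.5 in HF day 56. The sum over 8 neutrophil markers ran from 40.4 to 10318.2, from 38.4 to 2612.8 and from 38 to 13446.6 in the same order. The arrays formed a set of 21 and a set of 9, with 7 and 3 of each group, when parted by how the 5′ ends of spiked-in control RNAs read against their 3′ ends. In whole muscle, fewer cells of a type and less RNA per cell cannot be told apart.

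On the high fat diet the muscle held more of the messengers for Decr1, Ech1 and Eci2 than on the low fat diet at the same age. Decr1 rose 1.30-fold (95% interval 1.19 to 1.42), Ech1 1.33-fold (1.19 to 1.48) and Eci2 1.16-fold (1.09 to 1.22). Eci1 stood 1.11-fold higher (1.01 to 1.22) and did not pass the test. Thus 3 of the 4 genes were called in limma at a Benjamini-Hochberg adjusted p of 0.05. Only 4 entries (0.0243%) were called in all, each of them higher, and these 3 genes are among them. Because the genes were chosen with earlier results of these data known, that share is no independent measure of their response.

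For the reductase Decr1, HF day 56 intensities had a lowest value of 797.8, a median of 856.4 and a highest of 1148 over 10 mice. LF day 56 mice lay at 624.7, 699.9 and 772.3 on the same measures, so every high fat mouse was above every low fat mouse. The log2 difference was 0.38 ± 0.06 (SE; limma, adjusted p = 0.00954). Decr1 took place 2 among all entries by p.

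For the dienoyl isomerase Ech1, the lowest, median and highest intensities were 3853.9, 4770 and 6389.9 in HF day 56 and 3033.7, 3568.5 and 4237.3 in LF day 56. The groups overlapped slightly: 8 of 10 high fat mice lay above every low fat mouse, and 10 of 10 above the low fat mean. The log2 difference was 0.41 ± 0.08 (SE; limma, adjusted p = 0.0383).

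Among the delta isomerases, Eci2 had intensities of 636.7, 678.1 and 723.3 (lowest, median, highest) in HF day 56 and 560.1, 582.8 and 613.0 in LF day 56. As with Decr1, the 2 groups did not overlap. Decr1 and Eci2 were the only entries of 16475 whose groups at day 56 did not overlap (0.0121%). Eci2 differed by 0.21 ± 0.04 (log2, SE; limma, adjusted p = 0.0383), a smaller step than that of Decr1. Its SD between mice was small too, at 0.06 in HF day 56 and 0.05 in LF day 56 (log2, n = 10 each).

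Eci1 ran from 962.0 over a median of 1106.5 to 1411.8 in HF day 56, and from 886.4 over 1041.5 to 1128.8 in LF day 56. Here the groups overlapped widely, with 4 of 10 high fat mice above every low fat mouse and 8 of 10 above the low fat mean. The log2 difference was 0.15 ± 0.06 (SE; limma, p = 0.0261, adjusted p = 0.941).

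**Figure D1:**
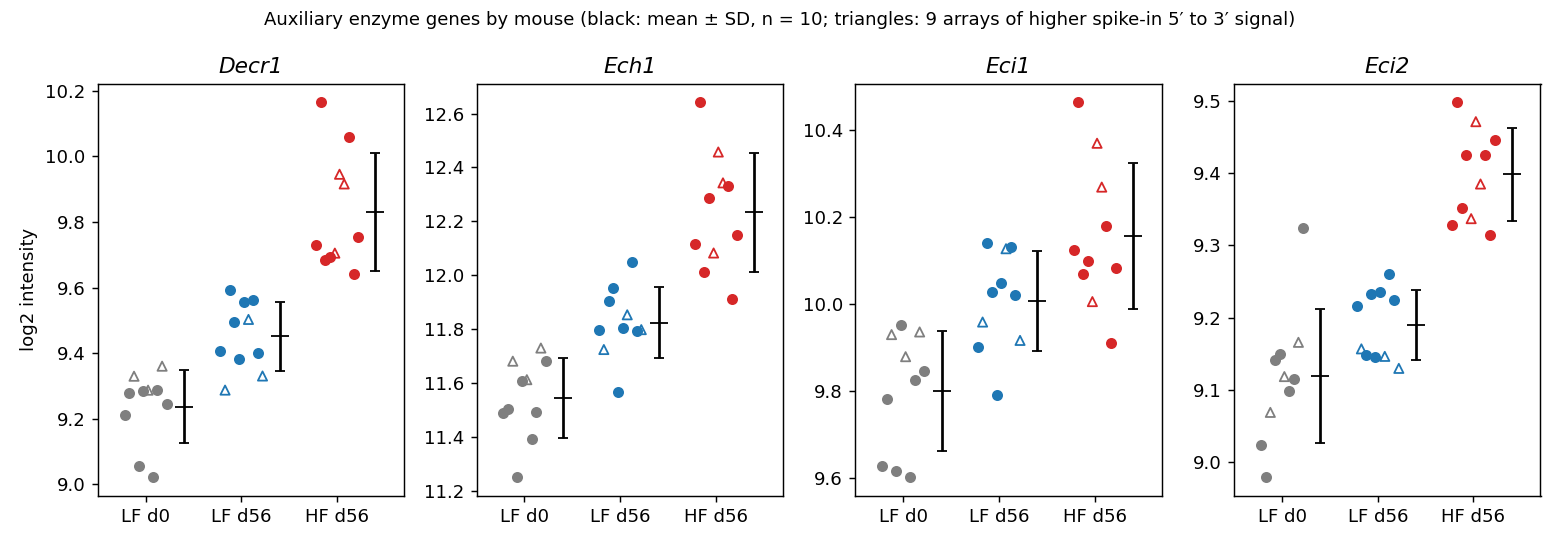
Log2 intensity (y axis, a separate scale for each gene) of Decr1, Ech1, Eci1 and Eci2 in every mouse of LF d0, LF d56 and HF d56 (x axis); each point is 1 mouse, triangles are the 9 arrays of higher spike-in 5′ to 3′ signal, and black bars are the mean ± SD (n = 10). The HF d56 points of Decr1 and Eci2 lie wholly above those of LF d56, while those of Eci1 overlap them.

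Permutation tests of single genes (two-sided, 100000 resamples, 10 mice against 10) gave p = 2e-05 for Decr1 and for Eci2, the smallest they can give, 8e-05 for Ech1 and 0.03 for Eci1. The calls of Ech1 and Eci2 lay close to the threshold. With LF day 56 replicate 1, 2, 3, 5, 6, 7, 9 or 10 left out, neither passed, and neither did with HF day 56 replicate 2, 4, 6 or 8 left out. Leaving out LF day 56 replicate 4 or HF day 56 replicate 10 also ended the call of Eci2. Over the 20 such fits their differences ran from 0.36 to 0.44 for Ech1 and from 0.20 to 0.22 for Eci2, with a highest adjusted p of 0.109 for both (limma). In a limma fit of the day 56 groups alone, 0 of the 4 passed (Decr1 adjusted p = 0.0998, all 4 at an unadjusted p below 0.05). Of all entries that fit called 0, and the share at that unadjusted level was not counted.

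Within the set of 21 arrays the diet differences of Decr1, Ech1, Eci1 and Eci2 were 0.33, 0.37, 0.12 and 0.19 (log2), and within the set of 9 they were 0.48, 0.50, 0.21 and 0.25. All 4 were thus higher on the high fat diet in each set. The difference between the sets did not pass for any of them (limma interaction, unadjusted p from 0.279 to 0.522). Fits of each set alone called 0 of the 4 genes in limma, with Decr1, Ech1 and Eci2 at an unadjusted p below 0.05 in each. Of all entries each of these fits called 0, and the share at that unadjusted level was not counted.

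The genes did not differ by the same amount. Taking the log2 ratio of 2 genes on the same array, Ech1 gained 0.26 ± 0.04 (SE) on Eci1 between LF day 56 and HF day 56, with 10 of 10 high fat mice above the low fat mean (permutation test, adjusted p = 0.00012 over the 6 pairs). The high fat ratios, given relative to the LF day 56 mean, lay between 0.13 and 0.37 and the low fat ones between -0.09 and 0.11, without overlap. Decr1 likewise gained 0.23 ± 0.04 on Eci1, in 10 of 10 mice (permutation test, adjusted p = 0.00012). Against Eci2, Decr1 gained 0.17 ± 0.05 and Ech1 0.20 ± 0.06, in 10 and 9 of 10 mice (permutation test, adjusted p = 0.00918 for both). Within the 21 arrays these last ratios differed by 0.14 and 0.18 and did not pass (permutation test, adjusted p = 0.0988 for both).

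The remaining pairs did not part beyond their spread. Ech1 and Decr1 differed in their diet effect by 0.03 (95% interval -0.06 to 0.13; permutation test, adjusted p = 0.509). Eci2 and Eci1 differed by 0.06 (-0.05 to 0.17; permutation test, adjusted p = 0.334), so the pass of Eci2 and the miss of Eci1 do not show unlike diet effects of these isomerases.

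**Figure D2:**
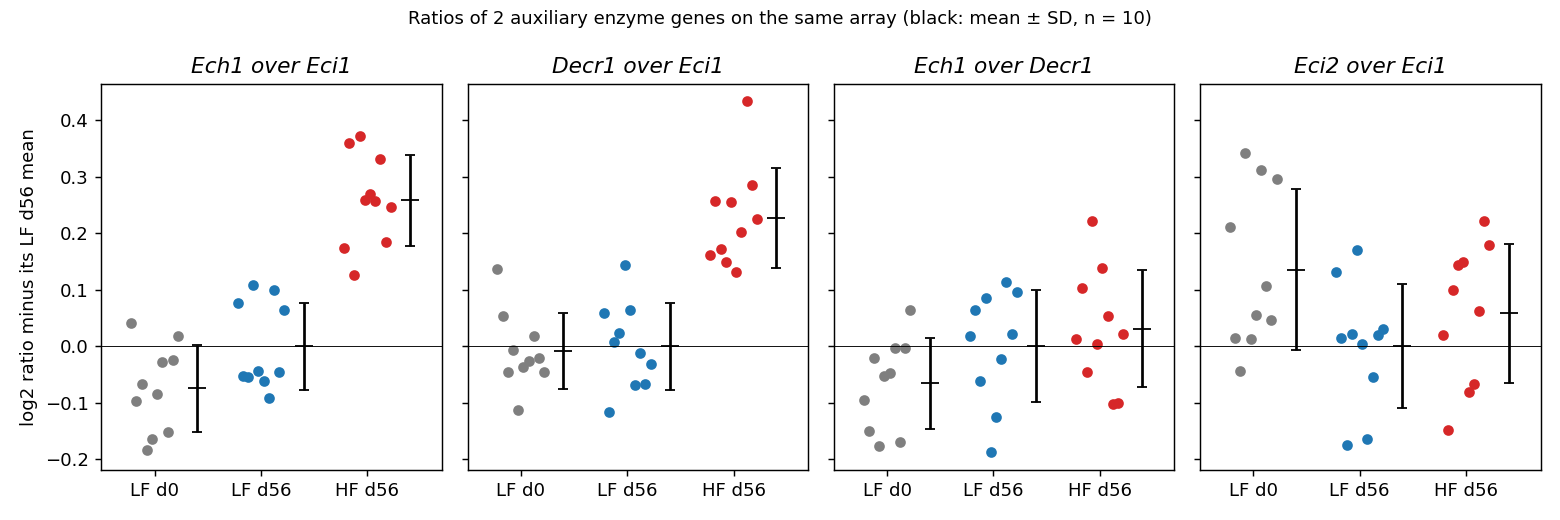
Log2 ratio of 2 auxiliary enzyme genes on the same array, minus the mean of that ratio in LF d56 (y axis), by group (x axis); points are mice and black bars the mean ± SD (n = 10). Ech1 over Eci1 lies between 0.13 and 0.37 in HF d56 and between -0.09 and 0.11 in LF d56, while Ech1 over Decr1 and Eci2 over Eci1 overlap between these groups.

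Between 12 and 20 weeks of age on low fat food, all 4 genes stood higher at the end, as did 50.4% of all entries. None of the 4 passed in limma, where 0.85% of all entries were called (0.225% as higher). This comparison shows the change with age and time on the diet, which cannot be told apart. Ech1 had intensities of 2438.5, 3010.2 and 3396.8 (lowest, median, highest) in LF day 0 and differed by 0.28 ± 0.08 (log2, SE; limma, adjusted p = 0.0796). Decr1 lay at 519.9, 622.7 and 657.1 in LF day 0 and differed by 0.22 ± 0.06 (adjusted p = 0.118). For both genes 10 of 10 LF day 56 mice exceeded the day 0 mean, and 8 exceeded every day 0 mouse.

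Eci1, at 777.6, 913.5 and 991.1 in LF day 0, differed by 0.21 ± 0.06 over this time (log2, SE; limma, adjusted p = 0.156). Eci2, at 504.6, 555.2 and 641.3, differed by 0.07 ± 0.04 (adjusted p = 0.565). Its highest day 0 mouse, replicate 10, lay above every LF day 56 mouse. At an unadjusted p below 0.05 there were 3 of the 4 genes in limma and 4 by permutation tests, and 10.1% of all entries were at that level in limma (4.26% as higher). Without replicate 5 of LF day 56, Ech1 passed (0.31, limma, adjusted p = 0.0449), and with the neutrophil marker score as a covariate Decr1, Ech1 and Eci1 did (0.27, 0.36 and 0.27). Relative to LF day 56, the mean ratio of Decr1 over Eci1 in LF day 0 was -0.01 ± 0.07 and that of Ech1 over Eci1 -0.07 ± 0.08 (SD, n = 10).

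Markers of other cell types differed over the same time. Of 5 fibroblast markers 3 fell, the collagens Col1a1 (-0.86), Col1a2 (-0.83) and Col3a1 (-0.63; log2, limma, adjusted p from 0.000373 to 0.00112). Of 7 endothelial markers 1 fell, the tight junction gene Cldn5 (-0.79, adjusted p = 0.0130), and all 7 stood lower (median -0.26). All 8 neutrophil markers stood lower (median -2.06) with 0 called by limma and 2 at an unadjusted p below 0.05, while all 7 slow fibre markers stood higher (median 0.81), with 0 at an unadjusted p below 0.05. All 6 measured adipocyte markers stood higher (median 0.52), and 0 passed (3 at an unadjusted p below 0.05).

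Set against LF day 0, HF day 56 holds time and diet together, and this comparison shares arrays with both of those above. All 4 genes rose in it, where 1.59% of all entries were called (0.783% as higher). Ech1 rose by 0.69 ± 0.08 (log2, SE; limma, adjusted p = 8.42e-07), Decr1 by 0.59 ± 0.06 (5.05e-07), Eci1 by 0.36 ± 0.06 (0.00155) and Eci2 by 0.28 ± 0.04 (4.48e-05). As folds these were 1.61, 1.51, 1.28 and 1.21. For Decr1 and Ech1 every high fat mouse lay above every day 0 mouse, as held for 0.091% of all entries. For Eci1 and Eci2, 9 of 10 did. In the same comparison 4 of 6 measured adipocyte markers rose, among them the hormone genes Lep (2.28) and Adipoq (1.11) and the lipid droplet gene Cidec (1.81; log2, limma, adjusted p = 0.000166, 0.00159 and 0.00254). Collagens Col1a1, Col1a2 and Col3a1 fell by 0.79, 0.77 and 0.48, and Cldn5 fell by 0.71 (limma, adjusted p = 0.00202, 0.000563, 0.00430 and 0.0207). With the adipocyte score as a covariate all 4 enzyme genes passed in this comparison; the part of the fibroblast and endothelial markers was not tested.

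Every one of the 4 genes had its mean order LF day 0, LF day 56, HF day 56. The share of all entries in this order was not counted, and the 4 genes vary together, so they are not separate cases. Eci1 had a difference of 0.21 over time and 0.15 with the diet, and Eci2 one of 0.07 over time and 0.21 with the diet; the size of the time step was not tested between genes or against the diet step. Neighbours in the order that did not differ beyond the test were LF day 0 and LF day 56 for all 4 genes, and LF day 56 and HF day 56 for Eci1.

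**Figure D3:**
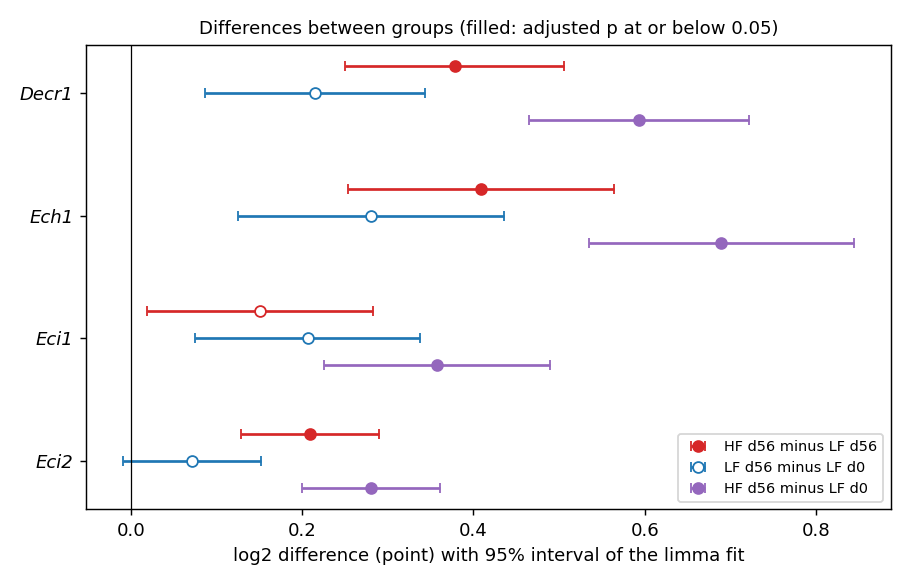
Log2 difference (x axis; point, with its 95% interval from limma) of the 4 genes (y axis) in the 3 comparisons of the groups, which share arrays; filled points have an adjusted p at or below 0.05. The points for HF d56 minus LF d0 run from 0.28 for Eci2 to 0.69 for Ech1 and are all filled, while those for LF d56 minus LF d0 are all open.

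High fat mice differed among themselves, and the 4 genes largely ranked them alike. Replicate 2 of HF day 56 was the highest and replicate 9 the lowest for all 4 genes. Replicate 2 exceeded the LF day 56 mean by 0.71 for Decr1, 0.82 for Ech1, 0.46 for Eci1 and 0.31 for Eci2 (log2). Replicate 9 exceeded it by 0.19, 0.09 and 0.12 for Decr1, Ech1 and Eci2, and lay at -0.10 for Eci1. The neutrophil marker score, a mean log2 level, was 10.20 in replicate 2 and 2.58 in replicate 9, and the slow fibre score was 8.97 and 4.15. Between these mice the adipocyte score ran the other way, at 7.66 in replicate 2 and 9.43 in replicate 9. So did the intensity of Lep, at 27.4 and 186.7, and both values of replicate 9 were the highest of the 10 mice. Over all 10 high fat mice, the mean deviation of the 4 genes had r of 0.82 with the neutrophil score and 0.71 with the slow fibre score. With the adipocyte score r was only -0.22, and with log2 Lep -0.29. These r values were not tested. Without replicate 2 the diet differences were 0.34, 0.36, 0.12 and 0.20 for Decr1, Ech1, Eci1 and Eci2.

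**Figure D4:**
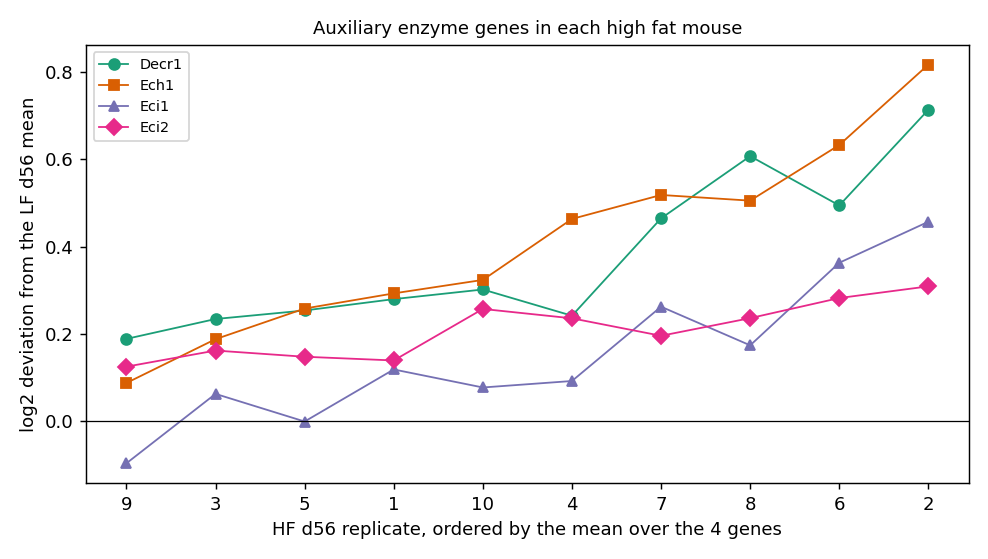
Log2 deviation of each gene from its LF d56 mean (y axis) in the 10 HF d56 mice, named by replicate and ordered by the mean over the 4 genes (x axis). Replicate 9 is lowest and replicate 2 highest for all 4 genes, with Ech1 at 0.82 and Decr1 at 0.71 in replicate 2; lines only join the points of a gene.

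With group means removed, the genes went up and down together over the 30 mice. Ech1 and Eci1 had r = 0.89, Decr1 and Eci1 r = 0.84, and Decr1 and Ech1 r = 0.83. Eci2 followed less closely, with r = 0.37 to Decr1, 0.46 to Eci1 and 0.55 to Ech1. Within the 10 HF day 56 mice the r of Eci2 to Decr1 was 0.74, against 0.01 in LF day 0 and 0.42 in LF day 56. These values describe arrays that share processing and on which slow fibre, adipocyte and neutrophil markers varied between mice. No test was made. The spread of Eci2 between mice was among the smallest: its within-group SD of 0.07 (log2) lay at percentile 2.0 of the 6844 entries that passed the filter (background exceeded on 5 arrays or more). That of Decr1 (0.14), Eci1 (0.14) and Ech1 (0.17) lay at percentiles 24.9, 27.2 and 41.4.

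The genes whose pattern was most like that of each enzyme were sought by r over the 30 arrays with group means removed, among 6595 other named entries that passed the filter. For Decr1 they were Etfb (r = 0.85), a subunit of the flavoprotein that takes electrons from acyl-CoA dehydrogenases, then Eci1, Ech1, Hadha (0.82), the alpha subunit of the trifunctional protein, and Acadl (0.82), the long-chain acyl-CoA dehydrogenase. Ech1 was followed most closely by Eci1, the actinin gene Actn2 (0.87), Hadha (0.87), the succinate dehydrogenase subunit Sdhb (0.85) and Coq8a (0.84), which acts in coenzyme Q synthesis. For Eci1 the list was Hadha (0.91), Ech1, Etfdh (0.89), the enzyme that passes those electrons to coenzyme Q, Sdhb (0.88) and Coq8a (0.87). Eci2 was nearest to the carnitine-acylcarnitine carrier Slc25a20 (0.71), Ripor1 (0.71), the epoxide hydrolase Ephx2 (0.63), and the respiratory chain subunits Ndufa10 and Cox6b1 (0.63 each). With the array set also removed, 3 of these 5 remained among the nearest 5 of Decr1 and of Eci1, and 2 for Ech1 and for Eci2.

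The diet differences of these neighbours, the 4 enzymes aside, ran from that of Coq8a to that of Ephx2, which differed by 0.47 ± 0.14 (log2, SE; limma, adjusted p = 0.495). Hadha and Acadl differed by 0.26 each between HF day 56 and LF day 56 (limma, adjusted p = 0.420 and 0.123), whereas Sdhb differed by 0.04 ± 0.05 and Coq8a by -0.0003 ± 0.07 (SE).

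Of 14 measured core enzymes of mitochondrial beta-oxidation, 11 stood higher and 3 lower on the high fat diet. All 14 passed the filter. Of all entries 51.5% stood higher, and of those past the filter 45.0%. The median of the 14 was 0.15 (log2), and that of all entries past the filter was -0.01. In limma 0 of the 14 were called, while 7 were higher and 1 lower at an unadjusted p below 0.05, as were 5.10% of all entries (2.99% as higher). Acadl, Hadha, Etfdh (0.18) and Hadhb (0.16), the beta subunit of the trifunctional protein, had the smallest p. The enoyl-CoA hydratase Echs1, which acts on the product of the delta isomerases, differed by -0.01 ± 0.10 (SE). From LF day 0 to HF day 56, 7 of the 14 passed, all higher, against 0.783% of all entries called as higher. Among them were Acadm, the medium-chain dehydrogenase (0.37, limma, adjusted p = 3.09e-05), and Acadl (0.38, adjusted p = 0.000275). Over time on the low fat diet 1 passed, Acadm (0.23, limma, adjusted p = 0.0142), where 0.225% of all entries were called as higher.

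Among genes of fatty acid entry, 8 of 11 measured activation and carnitine shuttle genes were higher on the high fat diet and 3 lower (median 0.09). Over all entries 51.5% were higher. In limma 0 passed, with 2 higher and 1 lower at an unadjusted p below 0.05, as were 5.10% of all entries (2.99% as higher). Cpt2, the inner membrane carnitine transferase, differed by 0.30 ± 0.07 (SE; limma, adjusted p = 0.196), and Slc25a20 by 0.27 ± 0.07 (adjusted p = 0.362). Cpt1b, an outer membrane transferase, differed by 0.18 ± 0.09 (SE, limma, adjusted p = 0.991). Its mean intensity was 1355.4 in HF day 56 and 1185.8 in LF day 56. Cpt1a, the liver-type outer transferase, differed by -0.14 near background, at means of 17.4 and 19.2. Crat differed by 0.14, and neither Cpt1a nor Crat passed. Against LF day 0, Cpt2 and Slc25a20 rose (0.38 and 0.39), and Cpt1a fell by 0.27, near background, from a mean intensity of 21.0 to 17.4. Cpt1b stood 0.31 higher there without passing (limma, adjusted p = 0.111).

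Of 4 further enzymes that act on double bonds of acyl-CoA, 2 stood higher and 2 lower with the diet, and 0 passed in limma (Ehhadh, lower, had an unadjusted p below 0.05). The peroxisomal reductase Decr2 and the isomerase Eci3, a close relative of Eci2, were under an intensity of 20 on all 30 arrays. Pecr, the peroxisomal trans-enoyl reductase, differed by -0.09 ± 0.10 (log2, SE), and Ehhadh, a peroxisomal bifunctional enzyme with isomerase activity, by -0.23 ± 0.09 (limma, adjusted p = 0.823), with 0 of 10 high fat mice above the low fat mean. Over the whole list of 13 measured peroxisomal genes, which counts Ehhadh again, 6 were higher and 7 lower (median -0.004), where 51.5% of all entries were higher. The 6 include Acox3 and Acaa1b, which lay under an intensity of 20 on all 30 arrays. In limma 0 passed, with 1 on each side at an unadjusted p below 0.05, as were 5.10% of all entries (2.99% as higher). Its member of smallest p was Hsd17b4 (0.16 ± 0.04, adjusted p = 0.362), the other peroxisomal bifunctional enzyme. Of 11 relatives with the crotonase fold, to which Ech1, Eci1 and Eci2 belong, 5 were higher and 6 lower (median -0.01). None of them passed in limma (1 higher and 2 lower at an unadjusted p below 0.05). Echs1, Hadha, Ehhadh and Eci3 in this list were already counted in the lists above.

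**Figure D5:**
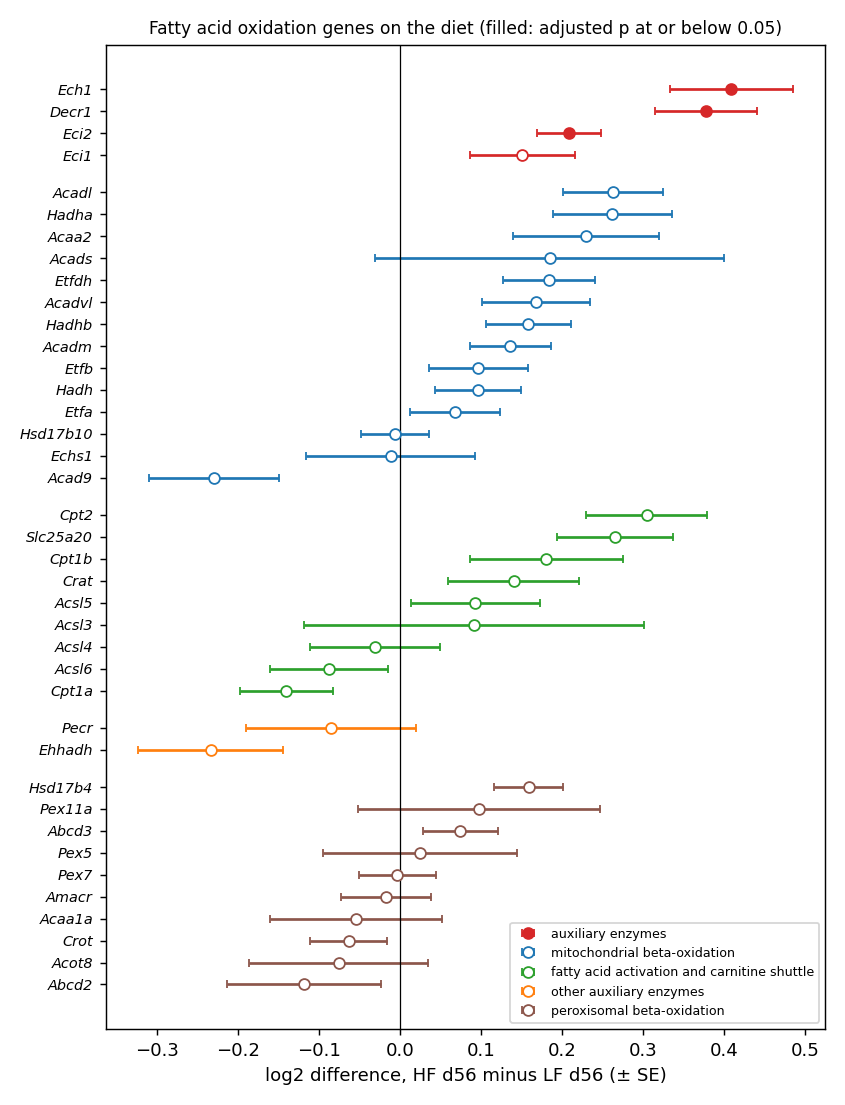
Log2 difference between HF d56 and LF d56 (x axis, ± SE of the limma fit) for the 4 auxiliary enzymes and the genes of 4 other lists that exceeded an intensity of 20 on 5 arrays or more (y axis), with Ehhadh drawn once; filled points have an adjusted p at or below 0.05. Ech1 (0.41), Decr1 (0.38) and Eci2 (0.21) are the filled points, Cpt2 follows at 0.30 among the open ones, and Ehhadh lies at -0.23.

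Other known PPAR target genes were mostly higher on the high fat diet, 10 of 12 measured with a median of 0.24 (log2), where 51.5% of all entries were higher. Slc25a20 and Acaa1b in this list were already counted in the lists above. In limma 0 passed, with 5 higher and 0 lower at an unadjusted p below 0.05, where 2.99% of all entries were higher and below it. Cd36, a fatty acid transporter, differed by 0.31 ± 0.07 and Plin5, a lipid droplet protein, by 0.56 ± 0.13 (SE; limma, adjusted p = 0.102 and 0.112). Pdk4, a kinase that shuts off pyruvate dehydrogenase, differed by -0.07 and the mitochondrial carrier Ucp3 by -0.28. The receptors and their partners showed 5 of 11 higher and 6 lower (median -0.04), with 0 at an unadjusted p below 0.05 in limma. Among them the receptor Ppara differed by -0.21 ± 0.25, the coactivators Ppargc1a and Ppargc1b by -0.23 ± 0.17 and -0.19 ± 0.10, and the partner Rxrg by -0.11 ± 0.08. Ppard lay under an intensity of 20 on all arrays.

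The neutrophil marker score (7 of 8 markers) was 5.25 ± 2.74 in HF day 56 and 3.98 ± 2.14 in LF day 56 (mean log2, SD, n = 10), and with group means removed it had r of 0.46, 0.58, 0.52 and 0.32 with Decr1, Ech1, Eci1 and Eci2. On 6 HF day 56 arrays with the neutrophil gene S100a8 above an intensity of 100, Ech1 read 12.36 ± 0.18, and on the other 4 it read 12.04 ± 0.10 (log2, SD). In LF day 56 it read 11.93 ± 0.11 on 4 such arrays and 11.76 ± 0.10 on 6 without. In LF day 0 the arrays did not part in this way, with Ech1 at 11.55 ± 0.18 on 7 such arrays and 11.53 ± 0.07 on 3 without. With the neutrophil score as a covariate the diet differences were 0.35, 0.36, 0.11 and 0.20 for Decr1, Ech1, Eci1 and Eci2, and Eci2 did not pass (limma, adjusted p = 0.0725). Without all arrays high in S100a8 they were 0.29, 0.28, 0.06 and 0.19, and 0 of the 4 passed (limma, 3 at an unadjusted p below 0.05). Of all entries that fit called 0, and the share at that unadjusted level was not counted.

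The slow fibre score (7 of 7 markers) had r of 0.52, 0.65, 0.65 and 0.50 with Decr1, Ech1, Eci1 and Eci2 with group means removed, and stood at 7.28 ± 1.89 in HF day 56 and 7.50 ± 1.95 in LF day 56. With it as a covariate the diet differences were 0.39, 0.42, 0.16 and 0.21, and Decr1, Ech1 and Eci2 passed (limma, adjusted p = 0.000685, 0.000685 and 0.00978). The adipocyte score (5 of 8 markers) was 8.03 ± 0.75 in HF day 56 and 7.37 ± 0.32 in LF day 56, with summed intensities of 6 measured markers from 6567.2 to 11143.1 and from 6001.7 to 9754.7. Its r with the 4 genes lay between -0.17 and 0.04. With it as a covariate the differences were 0.39, 0.42, 0.18 and 0.21, and 0 of the 4 passed (limma, adjusted p = 0.0597 for Decr1, all 4 at an unadjusted p below 0.05). Of all entries that fit called 2, and the share at that unadjusted level was not counted. Brown adipocyte markers stood out on 1 array: in LF day 56 replicate 6, Ucp1 read 228.5 and Cidea 204.1, while both lay under 20 on every other array and Elovl3 on all 30. Without that mouse the diet differences of Decr1, Ech1, Eci1 and Eci2 were 0.39, 0.41, 0.16 and 0.21, and Ech1 and Eci2 did not pass (limma, adjusted p = 0.0674 for both). The same 2 calls were lost without LF day 56 replicate 1, 2, 3, 5, 7, 9 or 10, so their loss is not particular to that mouse. Endothelial markers (7 of 7) had r of 0.47, 0.39, 0.45 and -0.03 with Decr1, Ech1, Eci1 and Eci2, macrophage markers (3 of 6) 0.38, 0.55, 0.43 and 0.48, red cell precursor markers (2 of 4) 0.49, 0.57, 0.53 and 0.26, and fibroblast markers (5 of 5) 0.21, 0.29, 0.16 and 0.15. The part of these last cell types in the diet differences was not tested.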

How the data were processed

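The authors deposited linear intensities, 1 for each gene on each array, and used GCRMA per the submitters' processing notes; the version, probe annotation and build are not given in the sources used here. The 64 control probe sets were left out and log2 was taken with a pseudocount of 0. Groups were compared two-sided in limma 3.58.1 under R 4.3.3 by lmFit and eBayes over all 30 arrays, without covariates, with Benjamini-Hochberg adjustment over 16475 entries and a threshold of 0.05. Ratios of genes were tested by permutation (100000 resamples, scipy 1.17.1, Python 3.11.15). The filter kept entries that exceeded an intensity of 20 on 5 arrays or more. A marker score is the mean log2 value of the markers in a list that passed it. Each array is another mouse per the labels, and the number of mice limits the precision. Genes named were the 4 enzymes, the 5 genes most like each, up to 4 genes of smallest p in the diet comparison from each pathway list, and others singled out after their values were seen. The genes and lists were chosen with earlier results of these data known. The procedure was also run on simulated data with noise drawn independently for each gene and array. Genes on the real arrays vary together, so that run cannot show how the procedure behaves under such shared variation. Alternatives were other priors, scalings and filters, a pseudocount of 10, array sets, the replicate number as a block, marker scores as covariates, and arrays left out; their effects close the text.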

Additional observations from a re-analysis of the deposited data

How the results depend on the processing

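Under every alternative run all 4 genes stayed higher in all 3 comparisons; the calls moved. For HF day 56 against LF day 56, 0 of the 4 genes passed in limma with only the groups compared (Decr1 0.38, Ech1 0.41, Eci2 0.21), with the replicate number as a block (0.38, 0.41, 0.21; Decr1 adjusted p = 0.0570), with the adipocyte score (0.39, 0.42, 0.21), within the 21 arrays (0.33, 0.37, 0.19), within the 9 (0.48, 0.50, 0.25) and without arrays high in S100a8 (0.29, 0.28, 0.19). Eci2 alone was lost with robust priors (0.21, limma, adjusted p = 0.05001), quantile normalization (0.21), median centring (0.20) and the neutrophil score (0.20). Leaving out 1 array gave 1 to 3 called genes, Ech1 at 0.36 to 0.44 and Eci2 at 0.20 to 0.22. Eci1 (0.15) fell below 0.05 by the permutation test of a single gene, which is not adjusted over all entries. The ratios of Decr1 and Ech1 to Eci2 missed within the 21 arrays (0.14 and 0.18).

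Replicate numbers did not pair the mice: same-numbered arrays had a median r of -0.10 in their deviations, over 0.1 in 9 of 30 pairs. For LF day 56 against LF day 0, 1 gene passed, Ech1, with only the groups compared (0.28), array weights (0.28), median centring (0.29), the filter on low values (0.28), and the array set with slow fibre and neutrophil scores together (0.29), a fit added after the data were examined. With the neutrophil score 3 passed (Decr1 0.27, Ech1 0.36, Eci1 0.27). Leaving out 1 array gave 0 to 1, with Ech1 at 0.25 to 0.31. Permutation tests of single genes put Decr1 (0.22), Ech1 (0.28), Eci1 (0.21) and Eci2 (0.071) below 0.05. For HF day 56 against LF day 0, 0 passed within the 9 arrays (0.53, 0.62, 0.30 and 0.28 for Decr1, Ech1, Eci1 and Eci2) and without arrays high in S100a8 (0.44, 0.51, 0.21 and 0.27), fits of fewer mice. Over all entries the diet comparison called 4, between 0 and 12 under the other settings and between 2 and 15 with 1 array left out. The time comparison called 140 (11 to 214 under the other settings), and HF day 56 against LF day 0 called 262 (0 to 405). The cause of these shifts was not tested, beyond the smaller number of mice in fits of fewer arrays.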
